A study of Mus musculus with 6 samples.

Results

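The 10 genes of retinoic acid biology followed here were measured in whole mouse brains: the synthesis enzymes Aldh1a1, Aldh1a2 and Aldh1a3, the breakdown enzymes Cyp26a1 and Cyp26b1, the receptors Rara, Rarb and Rxrg, and the binding proteins Crabp1 and Crabp2. They were taken by symbol from the annotated gene rows, and all 10 were found among 55359 annotated genes. Brains were collected at E18.5, late in gestation, from mice with a PME-1 S156A knock-in, 3 libraries, and from PME-1 WT mice, 3 libraries. PME-1 (gene Ppme1) is the methylesterase that removes a methyl group from the catalytic subunit of the phosphatase PP2A. Each library held the RNA of 3 pooled brains, so the spread between libraries is between pools and not between single embryos. Gene positions below are those of the deposited files, for which the submitters name no mouse build, and they are not on the build of the promoter windows. The zygosity of the knock-in, the strain and the sex of the embryos were not stated in the labels.

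Retinoic acid is made from vitamin A in 2 oxidation steps, retinol to retinaldehyde and retinaldehyde to retinoic acid, and the second step is carried out by the Aldh1a enzymes. Cyp26 enzymes oxidise it for removal, CRABP proteins carry it inside the cell, and nuclear RAR receptors paired with RXR receptors bind it and switch on target genes through repeats in DNA. In the developing brain the best known sources are the meninges (Aldh1a2), a set of midbrain dopaminergic neurons (Aldh1a1) and the ventral forebrain (Aldh1a3), and the striatum is rich in Rarb and Rxrg.

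The sequence in front of the genes was also searched. The genes were chosen for their known part in retinoic acid biology, and the repeat searched for is the textbook one. Matches are therefore not independent of the choice of genes and carry no test. The textbook retinoic acid response element is a direct repeat of a unit of 6 bases, with 5 bases between the units. RefSeq promoter windows of build GRCm38.p6, 250 bases before to 50 bases after a gene start, were found for 8 of the 10 genes (13 windows). The windows in front of Rarb and Cyp26a1, 2 of the 13, held a repeat of this kind. Both sequences are shown from 250 bases before the start up to the start, 5′ to 3′ on the strand of the gene, because they are the only ones of the 13 windows with a match; capitals mark the repeat with both units and the spacer. Rarb is at chr14:16575477-16575726 on the minus strand, and Cyp26a1 is at chr19:37697558-37697807 on the plus strand.
Rarb: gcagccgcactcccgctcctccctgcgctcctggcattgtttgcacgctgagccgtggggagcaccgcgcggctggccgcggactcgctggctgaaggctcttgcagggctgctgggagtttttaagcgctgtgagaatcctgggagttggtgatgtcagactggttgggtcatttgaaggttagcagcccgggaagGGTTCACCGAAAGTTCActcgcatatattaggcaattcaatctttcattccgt
Cyp26a1: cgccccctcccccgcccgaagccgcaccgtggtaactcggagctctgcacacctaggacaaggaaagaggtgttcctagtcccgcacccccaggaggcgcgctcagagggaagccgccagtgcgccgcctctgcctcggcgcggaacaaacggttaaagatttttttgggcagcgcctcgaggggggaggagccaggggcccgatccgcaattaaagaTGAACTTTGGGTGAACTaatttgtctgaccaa

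The search used the letters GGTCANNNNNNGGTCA, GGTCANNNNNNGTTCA, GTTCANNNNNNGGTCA and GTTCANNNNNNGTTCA on both strands, where the N letters are the spacer and the first base of the next unit; no 2 forms can match the same bases. Any of the 4 forms stood in 81 of 32851 windows (0.247%), and the form found in front of Rarb and Cyp26a1, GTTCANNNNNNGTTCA, stood in 25 (0.0761%). The Rarb repeat ran from base -53 to base -37 relative to the gene start, on the strand of the gene. The Cyp26a1 repeat ran from -32 to -16, on the opposite strand. None of the 48 windows of the other retinoid genes described below held a repeat with a spacer of 5, and repeats with a spacer of 2 or 1 stood in 0 of the 13 windows, against 0.399% and 0.402% of all windows. A match is a description of letters, and no match says only that these letters are not in this window.

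Depth and tissue make-up set the limits of the values. The deposited tables give TPM, a relative abundance in which each gene is divided by its length and each library is scaled to the same total; the estimated aligned sequence was 3.24 to 4.14 gigabases in S156A libraries and 3.15 to 3.37 gigabases in WT libraries, and 18191 to 19270 genes reached 1 TPM. Ppme1 itself stood at 72.4, 89.0 and 82.7 TPM in S156A libraries and at 92.4, 95.03 and 74.0 TPM in WT libraries and was not called, but the level of the transcript does not check for an amino acid change. Summed TPM of 12 skeletal muscle genes was 8673.9, 73.5 and 58.3 in S156A libraries and 16.5, 1078.7 and 8516.3 in WT libraries, so S156A replicate 1 and WT replicate 3 stood apart. These are called the muscle-rich libraries below. WT replicate 2 lay between them and the rest, and it stays in the fits without both muscle-rich libraries. The sum of 4 Y-linked genes came to 0.34, 40.2 and 43.3 TPM in S156A libraries and 28.7, 65.0 and 54.7 TPM in WT libraries. Astrocyte and striatal neuron markers were present in all 6 libraries, at summed levels of 532.5 to 710.1 and 198.7 to 257.2 TPM in S156A libraries against 462.8 to 519.1 and 242.4 to 300.5 TPM in WT libraries. The sum of 10 microglia markers was 388.5 to 463.3 TPM in S156A libraries and 127.5 to 207.7 TPM in WT libraries, with 10 of 10 higher in S156A by their mean and 4 called. The sum of 8 endothelial markers was 255.9 to 272.1 TPM in S156A libraries and 180.4 to 241.8 TPM in WT libraries, with 7 of 8 higher by their mean and 0 called.

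The levels of the 10 genes spanned a wide range. Over the 6 libraries the mean TPM of the annotated rows ran in the order Crabp1 at 49.8, Cyp26b1 at 32.0, Rxrg at 25.1, Aldh1a2 at 20.1, Crabp2 at 19.6, Rara at 19.6, Rarb at 9.71, Aldh1a1 at 5.2, Aldh1a3 at 2.56 and Cyp26a1 at 0.382. The ranges of every pair of neighbours in this order overlapped. Within single libraries, Cyp26b1 was above Rxrg, Rarb above Aldh1a1 and Aldh1a3 above Cyp26a1 in 6 of 6, while Aldh1a2 was above Crabp2 in 2 of 6 and Crabp2 above Rara in 4 of 6. Spread between libraries differed as much: the highest library was 1.32 times the lowest for Cyp26b1 and 1.62 to 1.85 times for Aldh1a2, Rxrg, Crabp2, Rara and Crabp1. It was 2.19 times for Rarb, 6.93 times for Aldh1a3, 8.0 times for Aldh1a1 and 12.0 times for Cyp26a1. The order depended on the measure. By the coverage column, per estimated aligned gigabase, Rxrg was at 1.67 to 2.72 and Aldh1a2 at 4.5 to 7.56 over the 6 libraries. By the loci assembled from the reads, described below, WT replicate 3 had Aldh1a1 at 12.5 TPM and Rarb at 9.92 TPM.

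**Figure D1:**
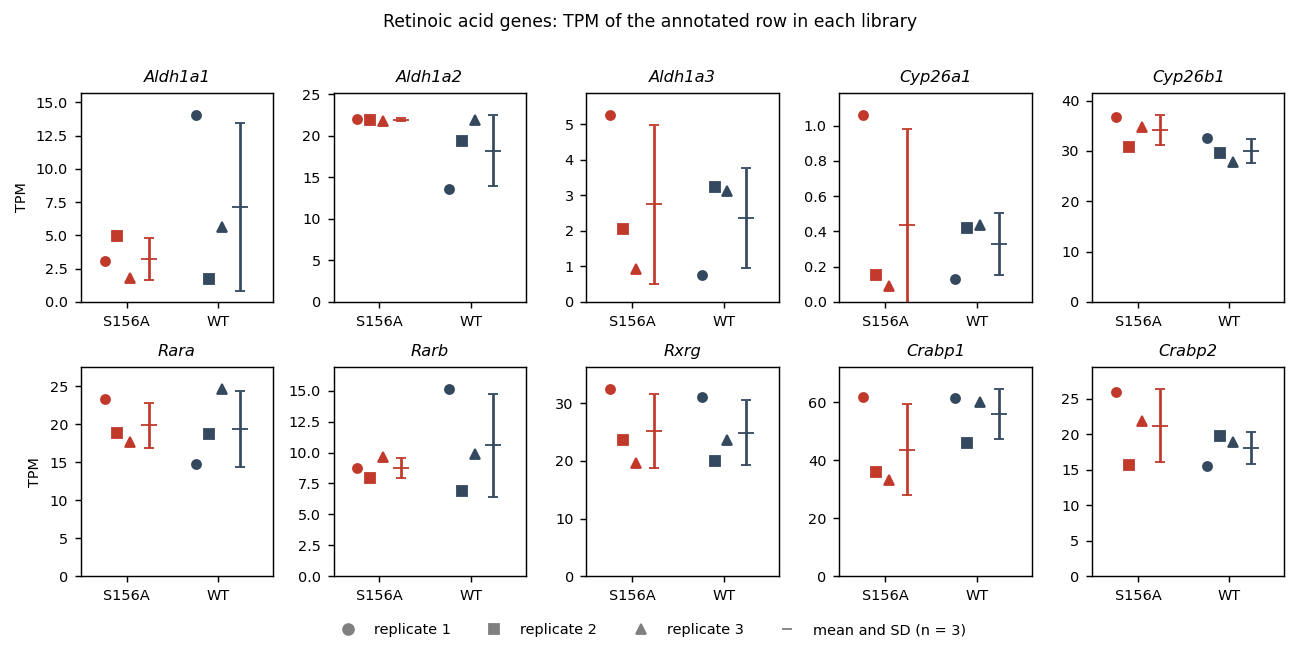
Level in TPM (vertical axes, linear and starting at 0) of the 10 retinoic acid genes in S156A libraries (red, left) and WT libraries (dark blue, right); symbols are single libraries by replicate number, and the bar beside them is the mean with 1 SD (n = 3 each; the lower end for Cyp26a1 in S156A lies below 0 and is cut off at the axis). The 2 groups overlap in all 10 genes, and Aldh1a2 is within 21.7 to 22.0 TPM in the S156A libraries against 13.6 to 21.9 TPM in the WT libraries.

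None of the genes passed the test between S156A and WT. Of the 10, 9 had a mean of at least 1 TPM and were tested, and limma (adjusted p under 0.05 over 18893 genes) called 0 of them, against 0.159% of all tested genes, or 30. At an unadjusted p under 0.05 the count was 0 of 9, against 13.9% of all tested genes, and the groups did not overlap for 0 of 9, against 20.8%. The differences were positive for 6 and negative for 3, with a median of 0.06 on the log2(TPM + 1) scale and a range of -0.68 to 0.28; over all tested genes 61.7% were positive, with a median of 0.09. A fold change on this scale understates the change of genes with low values. The intervals below show how large a difference these 6 libraries leave room for, and a p that misses the threshold does not show that levels were equal.

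Among the synthesis enzymes, Aldh1a2 (ENSMUSG00000013584.6, chr9:71123071-71203525, plus strand), the main source of retinoic acid in the meninges, was nearly equal in the S156A libraries. It stood at 22.0, 21.9 and 21.7 TPM in S156A libraries and at 13.6, 19.3 and 21.9 TPM in WT libraries. WT replicate 1 was the low library, and the S156A values lay at or near the top of the WT range. The means were 21.9 ± 0.162 TPM in S156A and 18.2 ± 4.26 TPM in WT (SD, n = 3 each), a log2 difference of 0.28 (SE 0.19, 95% interval -0.17 to 0.72, limma adjusted p = 0.56). Without WT replicate 1 the difference was 0.09, and without both muscle-rich libraries it was 0.41.

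Summed TPM of 14 meningeal and fibroblast genes, 10 of which had a higher mean in S156A and 0 of which were called, was 864.9 to 3730.1 in S156A libraries and 486.6 to 3152.5 in WT libraries. Foxd1, a transcription factor of the meninges, was at 10.3, 7.74 and 8.52 TPM in S156A libraries and at 3.74, 4.81 and 9.23 TPM in WT libraries, with its lowest value in the same WT library as Aldh1a2. Every gene of the list except Zic1 and Pdgfra was also lowest in that library. The sum was highest in the muscle-rich libraries, at 3730.1 TPM in S156A replicate 1 and 3152.5 TPM in WT replicate 3. Aldh1a2 stood at 22.0 and 21.9 TPM in these libraries. No gene of this list was at 0 in every library, and the part of meningeal tissue in the Aldh1a2 values was not tested. In pooled whole brains, fewer cells of a type and less RNA per cell cannot be told apart.

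Aldh1a1 (ENSMUSG00000053279.9, chr19:20470079-20620829, plus strand), the enzyme of a set of midbrain dopaminergic neurons, varied most among the tested genes. Its annotated row was at 3.08, 4.93 and 1.78 TPM in S156A libraries and at 14.0, 1.75 and 5.63 TPM in WT libraries. The highest and the lowest value were both in WT libraries. The means were 3.26 ± 1.58 TPM in S156A and 7.14 ± 6.28 TPM in WT (SD, n = 3 each), with a log2 difference of -0.68 (SE 0.61, 95% interval -2.11 to 0.75, limma adjusted p = 0.66). The difference was -0.07 without WT replicate 1 and -1.3 without WT replicate 2. The coverage column of the same row, divided by the estimated aligned gigabases of the library, gave a narrower picture: 0.232, 0.0801 and 0.122 in S156A libraries and 0.215, 0.17 and 0.214 in WT libraries.

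The summed level of 10 markers of midbrain dopaminergic neurons was 54.6 to 58.7 TPM in S156A libraries and 92.3 to 105.1 TPM in WT libraries, and 0 of the 10 had a higher mean in S156A. None of them was called. Th, which makes the dopamine precursor, stood at 1.33, 2.02 and 2.38 TPM in S156A libraries and at 12.0, 14.0 and 7.33 TPM in WT libraries. The dopaminergic markers were lower in every S156A library than in any WT library by their sum, while Aldh1a1 overlapped. Their part in the Aldh1a1 values was not tested.

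Aldh1a3 (ENSMUSG00000015134.16, chr7:66040638-66077265, minus strand), the enzyme of the ventral forebrain and the eye, was low. It stood at 5.26, 2.06 and 0.94 TPM in S156A libraries and at 0.759, 3.23 and 3.13 TPM in WT libraries. The highest value was in S156A replicate 1 and the lowest in WT replicate 1, and the groups overlapped. The means were 2.75 ± 2.24 TPM in S156A and 2.37 ± 1.4 TPM in WT (SD, n = 3 each), with a log2 difference of 0.09 (SE 0.53, 95% interval -1.15 to 1.33, limma adjusted p = 0.96). Its sign was negative without S156A replicate 1, at -0.36, and without WT replicate 1, at -0.32.

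Breakdown was represented mainly by Cyp26b1 (ENSMUSG00000063415.13, chr6:84548396-84570890, minus strand), the Cyp26 enzyme that neurons express. It was at 36.8, 30.8 and 34.7 TPM in S156A libraries and at 32.5, 29.6 and 27.8 TPM in WT libraries. The groups overlapped, with 1 WT library above the lowest S156A library. The means were 34.1 ± 3.01 TPM in S156A and 29.97 ± 2.34 TPM in WT (SD, n = 3 each), with a log2 difference of 0.18 (SE 0.13, 95% interval -0.12 to 0.47, limma adjusted p = 0.57). That was the narrowest interval of the tested genes, and without both muscle-rich libraries the difference was 0.07.

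Cyp26a1 (ENSMUSG00000024987.7, chr19:37686246-37689984, plus strand), the Cyp26 enzyme best known as an early retinoic acid target in the embryo, was below the filter and was not tested. It stood at 1.06, 0.155 and 0.0886 TPM in S156A libraries and at 0.129, 0.419 and 0.439 TPM in WT libraries. Only S156A replicate 1, a muscle-rich library, was above 1 TPM. Cyp26c1, the third Cyp26 enzyme, was at 0.164 TPM or less in all 6 libraries. The ratio of Cyp26b1 to Aldh1a2 in TPM was 1.67, 1.41 and 1.6 in S156A libraries and 2.39, 1.54 and 1.27 in WT libraries, so it overlapped between the groups too.

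Rara (ENSMUSG00000037992.17, chr11:98818644-98865768, plus strand), the most widely expressed of the retinoic acid receptors, was at 23.3, 18.9 and 17.7 TPM in S156A libraries and at 14.8, 18.7 and 24.6 TPM in WT libraries. The S156A values lay inside the WT range. The means were 19.9 ± 2.96 TPM in S156A and 19.4 ± 4.95 TPM in WT (SD, n = 3 each), with a log2 difference of 0.06 (SE 0.21, 95% interval -0.44 to 0.55, limma adjusted p = 0.93). The sign was negative without S156A replicate 1, at -0.05, and without WT replicate 1, at -0.11.

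Rarb (ENSMUSG00000017491.10, chr14:5650540-6038924, plus strand), the receptor of the striatum and the gene with the repeat printed above, was at 8.74, 7.98 and 9.61 TPM in S156A libraries and at 15.1, 6.91 and 9.92 TPM in WT libraries. The S156A values were again inside the WT range, which WT replicate 1 extended upward. The means were 8.78 ± 0.819 TPM in S156A and 10.6 ± 4.16 TPM in WT (SD, n = 3 each), with a log2 difference of -0.20 (SE 0.28, 95% interval -0.84 to 0.45, limma adjusted p = 0.80). Without WT replicate 1 the difference was 0.07. Rarb overlaps Top2b on the opposite strand; the library kit keeps strand, but the labels do not state whether the counting used it, so reads of the overlap cannot be assigned here. Striatal neuron markers, 12 in all, 3 of which had a higher mean in S156A and 0 of which were called, had summed levels of 198.7 to 257.2 TPM in S156A libraries and 242.4 to 300.5 TPM in WT libraries, and their part in the Rarb values was not tested.

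Rxrg (ENSMUSG00000015843.11, chr1:167425953-167467192, plus strand), the RXR partner receptor that is enriched in striatum, pituitary and skeletal muscle, was at 32.4, 23.7 and 19.7 TPM in S156A libraries and at 31.1, 20.0 and 23.7 TPM in WT libraries. The high library was replicate 1 in both groups. The means were 25.2 ± 6.48 TPM in S156A and 24.9 ± 5.62 TPM in WT (SD, n = 3 each), with a log2 difference of 0.01 (SE 0.23, 95% interval -0.53 to 0.55, limma adjusted p = 0.99). It was -0.18 without S156A replicate 1, -0.13 without WT replicate 2, -0.01 without WT replicate 3 and -0.20 without both muscle-rich libraries. Anterior pituitary markers, 9 in all, 5 of which had a higher mean in S156A and 0 of which were called, summed to 174.7 to 368.5 TPM in S156A libraries against 13.0 to 148.2 TPM in WT libraries; the part of pituitary and of muscle in the Rxrg values was not tested. The ratio of Rara to Rarb by annotated rows was 2.66, 2.36 and 1.84 in S156A libraries and 0.976, 2.71 and 2.48 in WT libraries. By these rows WT replicate 1 was the only library with more Rarb than Rara. By the loci assembled from the reads, described below, WT replicate 1 had Rara at 17.7 TPM and Rarb at 15.1 TPM.

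Crabp1 (ENSMUSG00000032291.9, chr9:54672032-54680394, plus strand), the cytoplasmic binding protein that hands retinoic acid to breakdown enzymes, had the highest mean. It was at 61.8, 36.0 and 33.4 TPM in S156A libraries and at 61.4, 46.0 and 60.3 TPM in WT libraries. S156A replicates 2 and 3 were below every WT library, and S156A replicate 1 was above them all. The means were 43.7 ± 15.7 TPM in S156A and 55.9 ± 8.59 TPM in WT (SD, n = 3 each), with a log2 difference of -0.39 (SE 0.25, 95% interval -0.97 to 0.19, limma adjusted p = 0.52). The size of this value depended on single libraries: it was -0.66 without S156A replicate 1, -0.28 without S156A replicate 2 and -0.23 without S156A replicate 3, with limma adjusted p-values of 0.21, 0.72 and 0.76. Leaving out a WT library gave -0.52 to -0.32, and leaving out both muscle-rich libraries gave -0.60 (adjusted p = 0.21). S156A replicate 1 was also the library with 0.34 TPM of Y-linked genes, and with the Y-linked level as a covariate the difference was -0.67 (adjusted p = 0.21). With the skeletal muscle level as a covariate it was -0.36 (adjusted p = 0.39). WT replicate 3, also rich in muscle RNA, had 54.7 TPM of Y-linked genes and Crabp1 at 60.3 TPM. WT replicate 1, with little muscle RNA, had Crabp1 at 61.4 TPM. In S156A replicate 1, high muscle RNA and low Y-linked RNA occurred together. Their parts in the Crabp1 values cannot be told apart and were not tested.

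Crabp2 (ENSMUSG00000004885.6, chr3:87855973-87860683, plus strand), the binding protein that carries retinoic acid to the receptors in the nucleus, was at 25.9, 15.7 and 21.9 TPM in S156A libraries and at 15.6, 19.8 and 18.9 TPM in WT libraries. The groups overlapped, with S156A replicate 1 highest. The means were 21.2 ± 5.12 TPM in S156A and 18.1 ± 2.22 TPM in WT (SD, n = 3 each), with a log2 difference of 0.20 (SE 0.21, 95% interval -0.29 to 0.68, limma adjusted p = 0.72). It was 0.04 without S156A replicate 1, 0.39 without S156A replicate 2, 0.10 without WT replicate 1 and 0.07 without both muscle-rich libraries. Crabp1 exceeded Crabp2 in all 6 libraries, by 2.39, 2.29 and 1.52 times in S156A libraries and by 3.94, 2.32 and 3.19 times in WT libraries. Of the 10 genes 7, Crabp2 among them, had their highest value in S156A replicate 1.

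**Figure D2:**
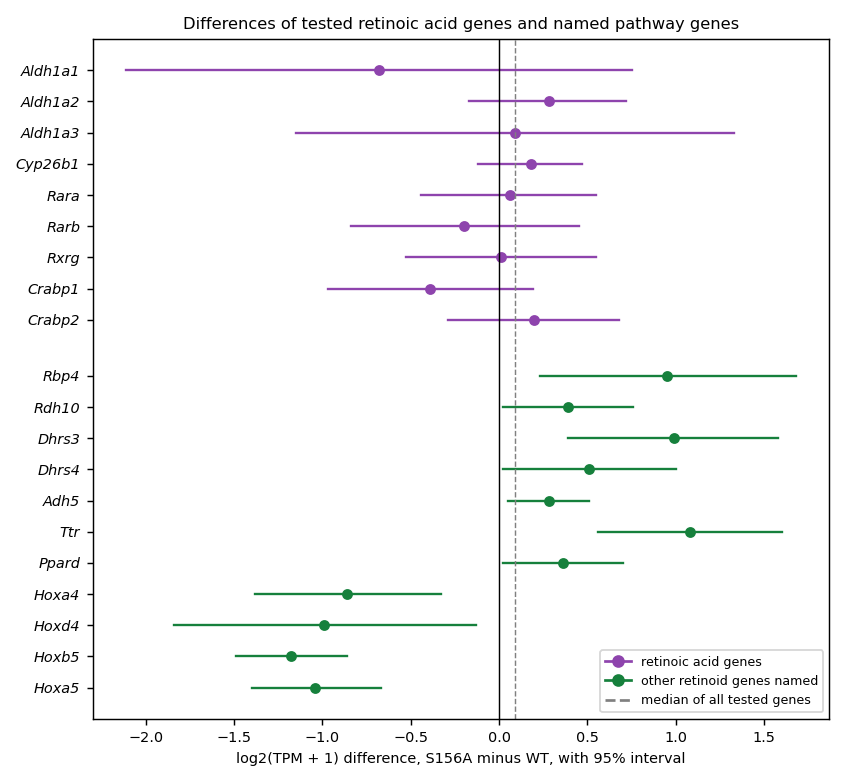
Difference in log2(TPM + 1), S156A minus WT (horizontal axis), with its 95% limma interval for the 9 tested retinoic acid genes (purple) and 11 other retinoid genes with an unadjusted p under 0.05 (green, shown because of that threshold); the dashed line is the median of all tested genes, 0.09. All 9 purple intervals include 0, and they range from -0.68 for Aldh1a1 to 0.28 for Aldh1a2 at their centres.

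The deposited tables hold a second measurement of the same genes, the loci assembled from the reads, which carry a StringTie identifier in place of a gene identifier. For Aldh1a2, Crabp1 and Crabp2 the same-strand assembled locus had the TPM of the annotated row in every library. Aldh1a1 differed in level: its assembled locus was at 13.5, 6.23 and 6.82 TPM in S156A libraries and at 14.0, 10.1 and 12.5 TPM in WT libraries. The annotated row held 22.9%, 79.1% and 26.1% of that in S156A libraries and 100.1%, 17.3% and 45.1% in WT libraries. By the assembled locus WT replicate 2, the lowest library of the annotated row, was not low, the means were 8.84 ± 4.01 TPM in S156A and 12.2 ± 1.96 TPM in WT (SD, n = 3 each), and the groups still overlapped.

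Aldh1a3 changed sign between these measurements. Its assembled loci were at 5.14, 5.1 and 2.79 TPM in S156A libraries and at 4.72, 7.19 and 8.88 TPM in WT libraries, a log2 difference of -0.57 against 0.09 for the annotated row. Rarb also changed sign, with assembled loci at 13.6, 18.1 and 13.0 TPM in S156A libraries and at 15.1, 11.0 and 9.92 TPM in WT libraries, a log2 difference of 0.30 against -0.20. In 3 libraries the assembled Rarb locus reached outside the gene, by up to 353740 bases, so it covers more than Rarb. Rara changed sign too, to -0.06, and Cyp26a1 had no assembled locus in 3 of 6 libraries. The groups overlapped for all 10 genes by assembled loci as well, and the cause of the gap between the measurements was not tested.

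**Figure D3:**
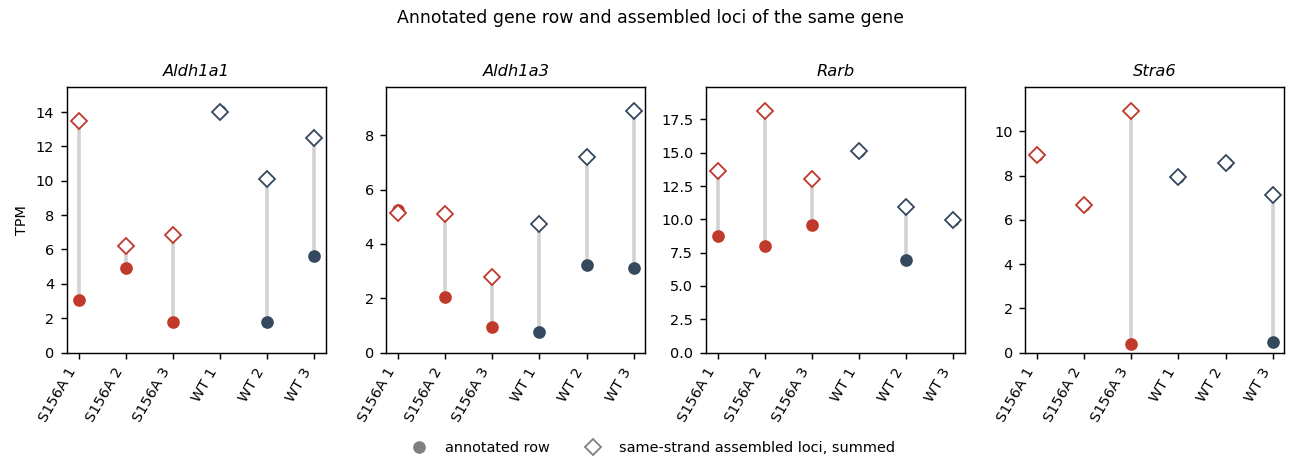
TPM (vertical axes, linear and starting at 0) of the annotated row (filled circles) and of the summed same-strand assembled loci (open diamonds) of Aldh1a1, Aldh1a3, Rarb and Stra6 in each S156A library (red) and WT library (dark blue); a grey line joins both values of a library, and the circle lies under the diamond where they are equal. In Stra6 the annotated row is at 0.386 TPM in S156A replicate 3 and at 0.466 TPM in WT replicate 3, far below the diamonds at 10.9 and 7.13 TPM.

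Genes upstream of the 10 were described from a list of 22 genes of retinoid uptake, storage and metabolism. Of these 13 were tested, 10 with a positive and 3 with a negative difference (median 0.28, against 0.09 over all tested genes), and 0 were called higher or lower, against 0.0847% called higher and 0.0741% called lower among all genes. At an unadjusted p under 0.05, 7 had a positive difference and 0 a negative one, against 8.41% of all tested genes, and in 6 every S156A library was above every WT library, against 13.7%. They included Ttr, Dhrs3, Rbp4, Rdh10, Adh5 and Dhrs4. The 9 genes below the filter are not part of these counts. The microglia, endothelial and astrocyte marker sums given above were also higher in every S156A library than in any WT library. Of the 9 astrocyte markers, 6 had a higher mean in S156A and 1 was called. The part of these cell types in the values of the upstream genes was not tested.

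Dhrs3, the enzyme that returns retinaldehyde to retinol and is itself a retinoic acid target, was at 33.8, 23.8 and 22.9 TPM in S156A libraries and at 9.61, 12.2 and 17.9 TPM in WT libraries. All S156A values were above all WT values, and the log2 difference was 0.99 (SE 0.25, 95% interval 0.39 to 1.58, limma adjusted p = 0.19). It did not pass the threshold. The difference was 1.04 without both muscle-rich libraries, 0.82 without S156A replicate 1 alone and 0.80 without WT replicate 1. The part of muscle-rich tissue in the Dhrs3 values was not tested.

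Rdh10, the main enzyme from retinol to retinaldehyde, was at 13.0, 15.3 and 15.1 TPM in S156A libraries and at 10.01, 10.6 and 11.7 TPM in WT libraries (log2 difference 0.39, SE 0.16, limma adjusted p = 0.34). Adh5, an alcohol dehydrogenase, was at 137.4, 148.2 and 156.5 TPM in S156A libraries and at 124.1, 115.8 and 123.1 TPM in WT libraries (0.28, SE 0.10, adjusted p = 0.28). Dhrs4, a reductase of retinaldehyde and other carbonyls, overlapped, with 27.1, 23.8 and 22.2 TPM in S156A libraries and 14.5, 14.1 and 23.0 TPM in WT libraries (0.51, SE 0.21, adjusted p = 0.35). For Rdh10 and Adh5 the groups did not overlap, but the gap between them was smaller than the range of the S156A libraries.

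Retinol transport was led by Ttr, the plasma carrier that binds Rbp4 with retinol and is made in the choroid plexus. It was at 2177.1, 2320.9 and 3334.6 TPM in S156A libraries and at 1471.0, 1169.0 and 1027.9 TPM in WT libraries, higher by 1.08 on the log2 scale (SE 0.22, 95% interval 0.56 to 1.60, limma adjusted p = 0.12). Rbp4, the retinol carrier of blood, was at 10.1, 8.65 and 15.7 TPM in S156A libraries and at 3.9, 4.69 and 7.87 TPM in WT libraries (0.95, SE 0.31, adjusted p = 0.26). Every S156A library was above every WT library for both. Of 11 choroid plexus markers, Ttr included, 10 had a higher mean in S156A and 0 were called. Their sum, most of it Ttr itself, was 2410.6 to 3552.2 TPM in S156A libraries and 1170.5 to 1586.8 TPM in WT libraries. Their part in the Rbp4 values was not tested.

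Stra6, the cell-surface importer of retinol, shows how far the annotated row can depart. The row was at 8.93, 6.69 and 0.386 TPM in S156A libraries and at 7.95, 8.56 and 0.466 TPM in WT libraries, low in replicate 3 of both groups. Its assembled loci were at 8.92, 6.67 and 10.9 TPM in S156A libraries and at 7.95, 8.56 and 7.13 TPM in WT libraries, without a low library. Stra6 and the genes Fabp5, Rarg, Rxra and Rxrb below were chosen after their values were seen. Fabp5, a fatty acid-binding protein that can carry retinoic acid to the receptor Ppard, was at 464.6, 557.8 and 587.7 TPM in S156A libraries and at 514.7, 505.8 and 444.9 TPM in WT libraries.

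**Figure D4:**
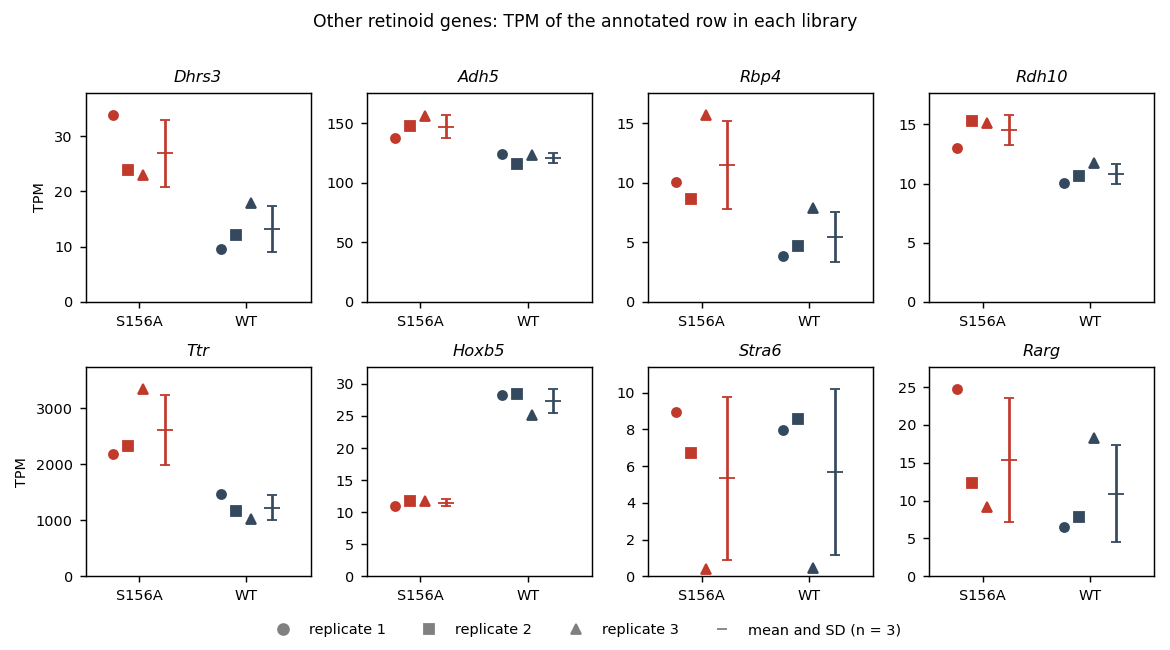
Level in TPM (vertical axes, linear and starting at 0) of 8 other retinoid genes in S156A libraries (red, left) and WT libraries (dark blue, right), by replicate symbol, with the mean and 1 SD beside them (n = 3 each). Hoxb5 is at 10.9 to 11.8 TPM in the S156A libraries, below all WT libraries at 25.2 to 28.4 TPM; Stra6 and Rarg overlap between the groups.

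Of 11 other receptors and cofactors, all tested, 0 were called, against 0.159% of all tested genes, 9 differences were positive and 2 negative, against 61.7% positive among all, and the median was 0.19. Ppard alone had an unadjusted p under 0.05, so 1 of 11, which is near the 8.41% of all tested genes with such a p and a positive difference. Ppard, a nuclear receptor for fatty acids, was at 21.0, 17.4 and 17.4 TPM in S156A libraries and at 13.9, 13.9 and 14.8 TPM in WT libraries, which is 0.36 on the log2 scale (SE 0.14, adjusted p = 0.34 by limma). Of the receptors not among the 10 genes, Rarg, best known in skin and cartilage, was at 24.7, 12.3 and 9.1 TPM in S156A libraries and at 6.56, 7.86 and 18.3 TPM in WT libraries. Its high values were in the muscle-rich library of each group, where 10 markers of skin and of oral or nasal epithelium summed to 327.2 TPM in S156A replicate 1 and 190.7 TPM in WT replicate 3, against 4.38 to 11.3 TPM in the others. That sum was made up mainly of keratins. Krt5, a keratin of basal skin cells, was at 59.5, 1.63 and 1.48 TPM in S156A libraries and at 0.1, 3.58 and 43.2 TPM in WT libraries, while the olfactory marker Omp was at 0.657 TPM or less in all 6. The part of skin in the Rarg values was not tested. Rxra was at 24.0, 18.4 and 16.2 TPM in S156A libraries and at 10.9, 11.7 and 19.4 TPM in WT libraries. Rxrb, the RXR with the highest TPM, was at 92.4, 83.2 and 90.4 TPM in S156A libraries and at 77.4, 77.5 and 78.1 TPM in WT libraries, without overlap (log2 difference 0.19, adjusted p = 0.42).

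Downstream, 18 textbook target genes were listed, 14 of them tested, with 6 positive and 8 negative differences and a median of -0.06. At an unadjusted p under 0.05 there were 2 with a positive difference, Dhrs3 from above among them, against 8.41% of all tested genes, and 4 with a negative one, against 5.50% of all tested genes, and in these 4 every S156A library was below every WT library, against 7.05%. The 4 were Hox genes of groups 4 and 5, transcription factors that set position in hindbrain and spinal cord. The other tested Hox genes of the list were Hoxb4, also of group 4, and Hoxa3. Their log2 differences were -0.32 (limma adjusted p = 0.71) and -0.31 (limma adjusted p = 0.7), and both overlapped between the groups by annotated rows. Hoxb5 fell: it was at 10.9, 11.8 and 11.8 TPM in S156A libraries and at 28.3, 28.4 and 25.2 TPM in WT libraries, giving a log2 difference of -1.18 (SE 0.13, 95% interval -1.49 to -0.86, limma adjusted p = 0.045). It was the 1 of 14 target genes called lower, against 0.0741% of all tested genes, and the 1 retinoid gene called. Its call was lost without each single library in turn except WT replicate 3, with adjusted p-values of 0.10 to 0.25 and differences of -1.20 to -1.14.

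Hoxa5 was at 20.1, 17.2 and 18.3 TPM in S156A libraries and at 47.0, 33.7 and 37.3 TPM in WT libraries, which differ by -1.04 on the log2 scale (SE 0.16, limma adjusted p = 0.069). Hoxa4 was at 8.39, 5.3 and 5.95 TPM in S156A libraries and at 15.0, 11.4 and 11.3 TPM in WT libraries (-0.86, SE 0.22, adjusted p = 0.19). Hoxd4 was at 1.73, 1.11 and 0.673 TPM in S156A libraries and at 2.01, 2.86 and 5.44 TPM in WT libraries (-0.99, SE 0.36, adjusted p = 0.31). They share strand and position with Hoxa3, Hoxd3 or other genes, so their reads could be split. By assembled loci the differences were -0.55 for Hoxa5, -0.73 for Hoxa4 and -1.01 for Hoxd4. The Hoxd4 loci overlapped between the groups, at 10.9, 9.07 and 0.665 TPM in S156A libraries and at 13.9, 11.6 and 7.58 TPM in WT libraries. The Hoxa3 row held 3.09 to 7.44% of its assembled loci, which can include Hoxa4 and Hoxa5. Those loci did not overlap between the groups, at 31.6, 33.3 and 30.7 TPM in S156A libraries and 55.0, 42.4 and 41.4 TPM in WT libraries (-0.51). The Hoxb4 loci overlapped, with a difference of -0.98. Of 12 hindbrain and spinal neuron markers, some of them Hox genes too, 0 had a higher mean in S156A, and they summed to 42.8 to 57.5 TPM in S156A libraries against 72.6 to 83.9 TPM in WT libraries; 1 of them was called. Their part in the Hox values was not tested.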

How the data were processed

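RNA-seq was done on 6 libraries, 3 per genotype, each a pool of 3 brains extracted with TRIzol and prepared with a directional MGIEasy kit, per the labels' protocols. Per the submitters' processing notes, the tools were StringTie 2.1.5, HISAT2 2.2.1 and Trim Galore 0.6.6, named without their roles or options; the only build those notes name is human hg38, although the rows are mouse genes, so positions are not joined to the RefSeq GRCm38.p6 windows. The deposited tables hold, per the file headers, coverage (a signal per base), FPKM and TPM for each row; the strand setting and other settings were not stated, and no read counts were used. Each library's TPM summed to 1000000 over assembled loci, and annotated genes came to 93.1 to 95.8% of that total. Aligned gigabases were estimated in each library as the commonest ratio of coverage to FPKM among annotated rows with high FPKM. Only 14.0 to 14.7% of those rows stood at that ratio, so the depths are rough estimates. The number of libraries limits the precision.

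Rows with an Ensembl mouse gene identifier were taken, and rows sharing an identifier (7 identifiers) were summed. log2(TPM + 1) of 18893 genes with a mean of at least 1 TPM was fitted with limma 3.58.1 in R 4.3.3 (lmFit, eBayes with trend, 2-sided), with genotype alone, and called at a Benjamini-Hochberg adjusted p under 0.05. The script was tested on simulated data. Assembled loci of a gene were those that overlap it on its strand, summed. Alternatives were FPKM, other pseudocounts, filters, scalings, variance settings, covariates and left-out libraries; coverage share and assembled loci were added after seeing the data.

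All 10 genes were named. From each other retinoid list every gene with an unadjusted p under 0.05 was named, except for a result that is not reported here, and the 2 genes with the nearest profile of each. The genes and lists were chosen with earlier results of these data known. Marker genes were used only beside a retinoid gene.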

Additional observations from a re-analysis of the deposited data

How the results depend on the processing

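The 0 calls among the 9 tested retinoic acid genes were the same under each of the 23 alternative fits, with at most 1 gene at an unadjusted p under 0.05. The count over all genes moved from 30 in the fit of all 6 libraries to 0 without a filter (3364 at an unadjusted p under 0.05), 52 by quantile normalization, 16 in eBayes without trend, 309 with library weights, 1 with the Y-linked covariate, 372 with the muscle covariate, and 0 without both muscle-rich libraries (3141 unadjusted). Leaving out 1 library gave 0 to 70 genes. The other retinoid genes called (Hoxb5, so 1) were 0 without a filter, 2 by quantile normalization, 0 without trend, 4 with library weights, 0 with the Y-linked covariate, 4 with the muscle covariate (Dhrs3, Hoxa5, Hoxb5 and Ttr) and 0 without both muscle-rich libraries, and 0 to 1 with 1 library left out. FPKM gave 37 genes, 13 higher and 24 lower, against 16 and 14.

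Aldh1a1, Aldh1a2, Cyp26b1, Crabp1 and Crabp2 kept their sign under all alternatives, and 4 genes did not. Aldh1a3 was -0.01 by quantile normalization, -0.24 with library weights, -0.23 with the Y-linked covariate, -0.16 without both muscle-rich libraries, -0.57 by assembled loci and -0.36 to 0.48 with 1 library left out. Rara was -0.01 by trimmed mean, -0.04 by quantile normalization, -0.01 with the Y-linked covariate, -0.06 by assembled loci and -0.11 to 0.24 with 1 library left out. Rarb was 0.07 by coverage share, 0.30 by assembled loci and -0.44 to 0.07 with 1 library left out. Rxrg was -0.01 by FPKM, -0.06 by trimmed mean and by quantile normalization, -0.04 with library weights, -0.21 with the Y-linked covariate, -0.20 without both muscle-rich libraries and -0.18 to 0.17 with 1 library left out. The causes were not tested. The median of all tested genes stayed between 0.02 and 0.12.

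The labels do not state whether the replicate numbers pair the samples. Deviations from the group means correlated at -0.55, 0.19 and -0.41 between same-numbered libraries. S156A replicate 1 correlated best with WT replicate 3 (0.65), the other muscle-rich library. These correlations cannot show whether same-numbered pools were handled together, so pairing was left out of the main fit without being excluded. With the replicate block 0 genes were called (1880 at an unadjusted p under 0.05), 0 of the retinoic acid genes and 0 of the other retinoid genes.

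The 3 pools per group limit what can be seen: the 95% intervals of the 9 genes reach from -2.11 to 1.33 on the log2 scale. Single embryos were not measured, and genes below 1 TPM on average were not tested.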

Other observations

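Adh1 and Tgm2, chosen after their values were seen, followed the muscle-rich libraries. Adh1, an alcohol dehydrogenase that oxidises retinol, was at 16.5, 0.201 and 0.396 TPM in S156A libraries and at 0.249, 0.86 and 10.4 TPM in WT libraries. Tgm2, a transglutaminase induced by retinoic acid, was at 35.1, 10.2 and 8.41 TPM in S156A libraries and at 6.57, 7.6 and 30.8 TPM in WT libraries. In both genes S156A replicate 1 and WT replicate 3 held the highest values, and the S156A and WT groups overlapped. Hoxb1 and Cdx1, retinoic acid targets of the early embryo, were listed at 0 in all 6 libraries.

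For each of the 10 genes, the 2 genes with the most similar profile were sought among 13678 genes with a mean of at least 5 TPM, by the largest absolute difference between the centred log2(TPM + 1) profiles over the 6 libraries. Cyp26b1 had the closest, Dnal4 and Ubl5, both within 0.05. Aldh1a2 was followed within 0.08 by Scaf11 and an unnamed gene, Rara within 0.09 by Iffo1 and Gm9396, Crabp2 within 0.09 by 1700096K18Rik and within 0.12 by Mrps12. Rxrg was followed within 0.10 by Tfrc and within 0.16 by Mindy4, Rarb within 0.16 by Gm10409 and Gm24029, and Cyp26a1 within 0.16 by Eng and Tmem109. Cyp26a1 was below the filter, at 0.0886 to 1.06 TPM, where the log2(TPM + 1) scale understates its 12.0-fold spread. Eng was at 22.7 to 37.8 TPM. Crabp1 was followed within 0.19 by Atp5k-ps2 and Cracdl. For the tested genes with the widest spread the nearest profiles were farther: within 0.33 by Gm10157 and 0.35 by Itgav for Aldh1a3, and within 0.51 by Gm5526 and 0.52 by Dennd1a for Aldh1a1. Dennd1a was at 9.43, 8.34 and 7.3 TPM in S156A libraries and at 26.7, 5.01 and 10.3 TPM in WT libraries. The most similar genes over 6 libraries are a description and carry no test.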
